A study of Mus musculus with 8 samples.

Results

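Acyl-CoA thioesterases cut activated fatty acids (acyl-CoA) back into a free fatty acid and coenzyme A. All 10 listed genes of the family (Acot1, Acot2, Acot3, Acot4, Acot7, Acot8, Acot9, Acot11, Acot12 and Acot13) were found by symbol among the 54385 gene identifiers of the deposited count table for mouse interscapular brown fat. All 10 also passed the filter on low counts that left 14553 genes for testing. The knockout group (cKO, 4 libraries) carried floxed Adcy3 alleles, the gene of adenylyl cyclase 3, together with a Cre recombinase under the adiponectin promoter (Adipoq-Cre), which is active in adipocytes and not in the other cells of the tissue. The control group (WT, 4 libraries) carried the same floxed alleles and, apart from the entry for replicate 4 described next, no Cre. All animals were C57BL/6N mice of 20 weeks on chow. RNA came from whole tissue. The depot is interscapular in each sample's labels and inguinal in the design text of the series, and the sample's own label was used here.

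WT replicate 4 stood apart by its labels, since its title names a control while its genotype entry carries the Cre. Its Adcy3 level, 118 CPM (counts scaled to a common library total), lay with the other controls (112, 118 and 61.7 CPM) and above all cKO libraries (18.0, 20.9, 25.3 and 21.5 CPM). Adcy3 fell to 21.4 ± 3.03 CPM in cKO, against 103 ± 27.4 CPM in WT (SD, n = 4 each; log2 fold change -2.26 ± 0.21 SE, edgeR quasi-likelihood adjusted p = 0.000925). Libraries held 10713043 to 16243318 estimated counts in cKO and 12977094 to 32437214 in WT, where WT replicate 1 was the deepest. The labelled tissue showed its markers in every library. The summed level of 10 brown adipocyte markers (Ucp1, Cidea, Cox7a1, Cox8b, Elovl3, Dio2, Ppargc1a, Prdm16, Adipoq and Plin1) ran from 5570 to 8490 CPM in cKO and from 6170 to 7010 CPM in WT, with none at 0. edgeR called 0 of the 10. DESeq2 called 1 of the 10 (0.287% of its genes over the whole table), as did edgeR on the unfiltered table (0.262%). The lowest unadjusted edgeR p of the 10, 0.000233, was that of the brown fat regulator Prdm16. Its level was 30.7 ± 4.03 CPM in cKO and 17.8 ± 3.78 CPM in WT (log2 fold change 0.79, edgeR adjusted p = 0.242). Cox7a1 and Cox8b, subunits of cytochrome c oxidase, had unadjusted p of 0.00807 and 0.0323 with edgeR adjusted p of 0.844 and 0.882. Cox7a1 stood at 146 ± 21.5 CPM in cKO and 190 ± 10.7 CPM in WT, and Cox8b at 336 ± 80.6 CPM in cKO and 446 ± 63.5 CPM in WT. In whole tissue, fewer cells of a type and less RNA per cell cannot be told apart. Whether the libraries come from separate mice is not stated in the labels, so p-values measure only the spread between these libraries, which may be technical.

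The family falls into 2 unrelated protein types. Type I enzymes (Acot1 to Acot6) are related copies that lie side by side in the mouse genome, and not all of them work in the same place. Acot1 is cytosolic, Acot2 mitochondrial, and Acot3, Acot4, Acot5 and Acot6 peroxisomal. Type II enzymes share the so-called hotdog fold and are spread over the genome. Acot11, also called Them1 or brown fat-inducible thioesterase, carries a lipid-binding START domain, and mice without it are known for a raised energy expenditure. Acot13 (Them2) is found at mitochondria, where it works with the phosphatidylcholine transfer protein Pctp. In brown fat these enzymes stand against the acyl-CoA synthetases, which make the acyl-CoA that mitochondria burn for heat. Acot1 is also a textbook target of the fatty acid sensor PPAR alpha in mouse liver.

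The type I genes lie on the plus strand of chromosome 12 in GRCm38, 79.8 Mb from the end of Adcy3, which is on the same chromosome. Acot2 spans 83987861 to 83993873, Acot1 84009490 to 84018371, Acot4 84038379 to 84048601 and Acot3 84052144 to 84060402, followed by Acot5 and Acot6. The type II genes lie on other chromosomes. Acot11 (chromosome 4, 106744555 to 106804998), Acot13 (chromosome 13, 24817948 to 24831540) and Acot8 (chromosome 2, 164792765 to 164804882) are on the minus strand. Acot7 (chromosome 4, 152178134 to 152271855), Acot9 (chromosome X, 155262443 to 155297654) and Acot12 (chromosome 13, 91741512 to 91786148) are on the plus strand. Coding sequences of the cluster are alike enough that short reads can match several of them, which bears on every count given for them. Acot1 and Acot2 were identical at 95.3% of 1236 aligned coding bases, with a longest identical run of 273 bases. Acot1 matched Acot3 at 83.9% and Acot4 at 72.8%. The stretches below show a coding window of 90 bases in which Acot1 and Acot2 do not differ. It starts at coding base 397 in Acot1 and Acot4, 520 in Acot2 and 430 in Acot3. Capitals mark bases that differ from Acot1. Acot3 differed there at 7 bases and Acot4 at 9.
Acot1: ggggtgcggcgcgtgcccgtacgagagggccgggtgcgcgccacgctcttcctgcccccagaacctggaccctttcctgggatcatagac
Acot2: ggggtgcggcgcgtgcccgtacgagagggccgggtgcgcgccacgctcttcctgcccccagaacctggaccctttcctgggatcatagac
Acot3: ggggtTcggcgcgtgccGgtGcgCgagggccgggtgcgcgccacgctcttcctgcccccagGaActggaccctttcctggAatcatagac
Acot4: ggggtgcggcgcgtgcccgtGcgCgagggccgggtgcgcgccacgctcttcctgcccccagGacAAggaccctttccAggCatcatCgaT

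A second window, starting at coding base 797 of Acot1 and 920 of Acot2, is where this pair differed most. It held 14 differences in 90 bases, again in capitals, though its opening bases are the same in both genes. Reads that cover the differing bases differ between Acot1 and Acot2, and how reads were assigned was not examined.
Acot1: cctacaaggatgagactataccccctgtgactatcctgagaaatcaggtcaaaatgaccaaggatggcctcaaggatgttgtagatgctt
Acot2: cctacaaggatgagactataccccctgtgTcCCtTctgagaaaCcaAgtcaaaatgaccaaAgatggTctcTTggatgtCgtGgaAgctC

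Over whole transcripts, 22.8% of the 31-base sequences of Acot1 and 37.8% of those of Acot2 also occur in another gene. Their largest partners are each other, with 645 sequences in common, 16.7% of Acot1 and 29.9% of Acot2. For Acot3 the share was 25.2% and for Acot4 17.9%. Among type II genes, 28.0% of Acot9 is also found in Acot10, a copy of it on chromosome 15. Acot7 and Acot13 shared none. Acot11 shared 18.7% with Fam151a and Acot8 10.8% with Snx21, both because exons overlap on opposite strands, over 1263 and 246 bases. The strand setting of the counting is not given in the sources used here, so reads of such overlapping exons cannot be told apart. Exons of Acot4, Acot3 and Acot12 also overlap RNA genes on the other strand, over 615 and 312 bases of 4732463B04Rik and 149 bases of 4833422C13Rik. Fam151a itself reached at most 0.300 CPM in any library. Snx21 stood at 21.6 ± 2.06 CPM in cKO and 24.4 ± 3.65 CPM in WT (SD, n = 4 each), and 4732463B04Rik at 1.19 ± 0.792 CPM in cKO and 0.953 ± 0.521 CPM in WT.

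The upstream sequences of the cluster are shown because Acot1 and Acot4 ranked the libraries alike and Acot2 is the closest copy of Acot1 in coding sequence. Each window holds 250 bases before and 50 after the RefSeq start on GRCm38.p6, read on the gene's strand. The Acot1 window is chr12:84009252-84009551 (plus strand), the Acot2 window chr12:83987611-83987910 (plus strand) and the Acot4 window chr12:84038129-84038428 (plus strand). Despite the shared coding sequence, the longest run common to the Acot1 and Acot2 windows was 9 bases, and 7 bases for Acot1 and Acot4. Capitals mark the hexamer AGGTCA on either strand, a half-site of nuclear receptors such as the PPARs, which occurs in 16.3% of 32851 promoter windows of the same length. It was found once in Acot4 and in neither Acot1 nor Acot2. Among windows not shown here, those of Acot3 and Acot12 held 1 each and those of Acot5 held 2. The direct repeat of that half-site (AGGTCA, any 1 base, AGGTCA) and the cyclic AMP response element TGACGTCA were in none of the windows of the 9 listed genes with an entry (both strands). They occur in 0.0396% and 1.79% of all windows. The half-site TGACG of the cyclic AMP response element, not marked below, had 1 copy in the Acot2 window. It was in no window of the other listed genes, and 20.8% of all windows hold it.
Acot1: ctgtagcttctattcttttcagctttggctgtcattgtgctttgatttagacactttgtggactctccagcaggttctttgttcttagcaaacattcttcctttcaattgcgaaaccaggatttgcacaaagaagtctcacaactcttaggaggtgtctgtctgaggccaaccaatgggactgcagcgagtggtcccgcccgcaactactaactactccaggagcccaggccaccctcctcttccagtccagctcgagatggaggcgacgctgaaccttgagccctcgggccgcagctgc
Acot2: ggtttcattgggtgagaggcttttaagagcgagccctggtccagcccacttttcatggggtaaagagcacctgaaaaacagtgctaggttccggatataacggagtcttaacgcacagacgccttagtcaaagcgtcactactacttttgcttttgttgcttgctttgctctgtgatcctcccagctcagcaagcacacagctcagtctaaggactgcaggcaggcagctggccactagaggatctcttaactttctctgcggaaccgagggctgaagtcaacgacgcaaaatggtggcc
Acot4: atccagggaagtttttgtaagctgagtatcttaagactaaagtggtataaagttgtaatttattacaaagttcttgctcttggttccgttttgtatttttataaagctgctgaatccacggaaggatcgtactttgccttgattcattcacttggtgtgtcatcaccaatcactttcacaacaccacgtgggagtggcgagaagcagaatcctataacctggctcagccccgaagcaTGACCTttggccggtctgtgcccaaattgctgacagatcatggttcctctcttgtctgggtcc

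The window at the first listed start of Acot11, chr4:106804958-106805257 (minus strand), is shown as that of the most abundant member. It held 20 CG pairs at a GC content of 66.0%, against 9 and 52.0% in Acot1. This was not particular to the most abundant member, since the window of Acot12 held 22 at 68.0%. The window at the second listed start of Acot11 held 9 at 64.7%. None of the searched motifs occurred in the Acot11 window shown.
Acot11: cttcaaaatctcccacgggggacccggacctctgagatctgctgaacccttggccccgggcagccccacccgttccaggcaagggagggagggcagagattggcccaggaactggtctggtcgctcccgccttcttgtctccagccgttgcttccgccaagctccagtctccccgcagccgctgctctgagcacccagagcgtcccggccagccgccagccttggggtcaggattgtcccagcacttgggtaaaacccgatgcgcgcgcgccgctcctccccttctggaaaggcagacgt

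Levels of different genes were set side by side as CPM per kb of the longest coding transcript. On that scale Acot11 led with 120 ± 15.5 in cKO and 99.2 ± 35.5 in WT (SD, n = 4 each). Acot13 followed with 73.9 ± 6.19 in cKO and 80.1 ± 6.87 in WT. Together this pair made up most of the family's transcripts. Acot11 took 43.9% ± 4.49 of the family's summed CPM per kb in cKO and 38.6% ± 8.06 in WT, and Acot13 took 26.9% ± 1.01 in cKO and 32.4% ± 5.72 in WT. Acot2, the mitochondrial type I enzyme, averaged 29.1 CPM per kb over the 8 libraries and Acot9, a mitochondrial type II enzyme, 19.9. Acot8, a peroxisomal enzyme of broad specificity, and Acot7, a cytosolic enzyme best known from brain, averaged 11 and 10.1. Acot4 and Acot1 lay at 2.74 and 2.61. Acot12, a cytosolic acetyl-CoA thioesterase best known from liver, averaged 0.398 and Acot3, a peroxisomal enzyme, 0.286.

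Most steps in that order held in every library. Acot13 exceeded Acot2, Acot2 exceeded Acot9, Acot9 exceeded Acot8, Acot7 exceeded Acot4 and Acot1 exceeded Acot12 in 8 of 8 libraries. Acot11 lay above Acot13 in 6 of 8, the exceptions being WT replicates 3 and 4. Other neighbours that did not separate beyond their spread were Acot8 and Acot7 (5 of 8), Acot4 and Acot1 (6 of 8) and Acot12 and Acot3 (6 of 8). With merged exon lengths Acot7 moved ahead of Acot8, with 7.19 and 6.37 CPM per kb, and in cKO libraries alone Acot1 (3.26) moved ahead of Acot4 (3.13). The other ranks were unchanged by these choices. Summed by the compartment in which each enzyme is known to act, mitochondrial members (Acot2, Acot9 and Acot13) reached 124 ± 11.3 CPM per kb in cKO and 128 ± 5.35 in WT. Cytosolic members, with Acot11 counted here, reached 135 ± 14.3 in cKO and 111 ± 35.6 in WT, and peroxisomal members (Acot3, Acot4 and Acot8) 15.3 ± 3.13 in cKO and 12.8 ± 2.34 in WT.

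**Figure D1:**
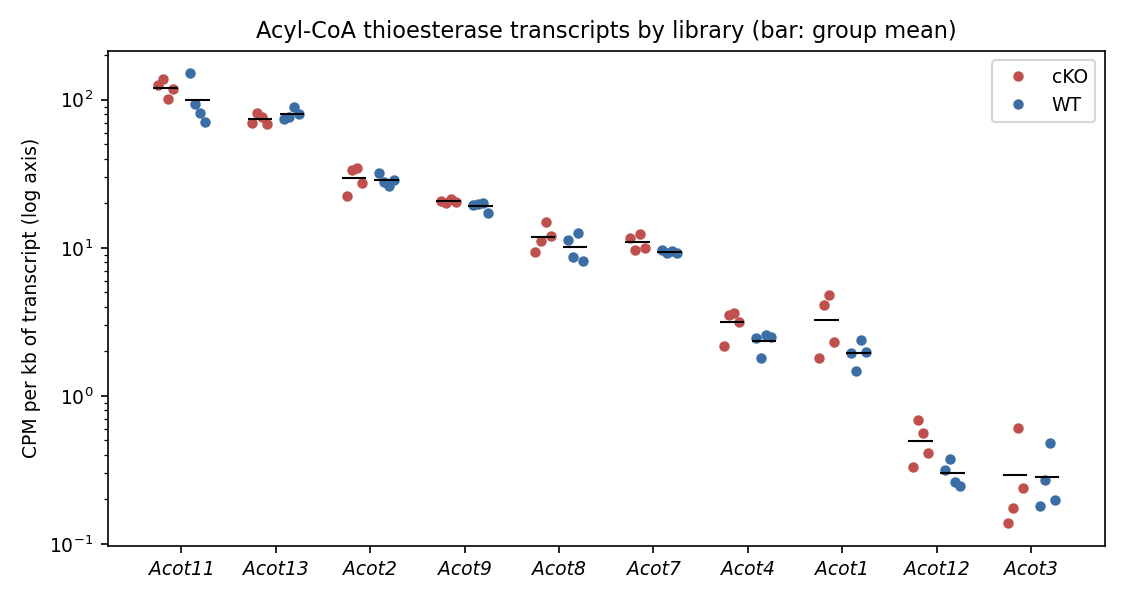
CPM per kb of transcript (log axis) of the 10 genes in each library, ordered by mean, with cKO libraries in red on the left and WT libraries in blue on the right of each pair. Points are libraries and bars are group means. Acot11 (mean 110) and Acot13 (77.0) lie at the top, and Acot12 (0.398) and Acot3 (0.286) at the bottom.

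None of the 10 members passed edgeR's quasi-likelihood test for cKO against WT at an adjusted p of 0.05. Over all 14553 genes tested, 0.0687% were called. DESeq2 (0.287% of its genes called), limma-voom (0.0687%) and edgeR without a count filter (0.262%) also called 0 of the 10. At an unadjusted p under 0.05 there were 2 members, Acot1 and Acot4, both higher in cKO, where 5.60% of all genes reached that level in either direction and 2.15% with a higher level in cKO. The fitted log2 fold change was positive for 9 members and negative for 1, Acot13, against 51.8% positive over all genes. The median was 0.22 over the members and 0.01 over all genes. For 0 of the 10 members were the groups free of overlap, against 3.50% of all genes. Without WT replicate 4 edgeR called 0 members, with 8 positive and 2 negative log2 fold changes. There Acot1 stood at 0.75 and Acot4 at 0.46 (unadjusted p = 0.0505 and 0.0366), and Acot11 at 0.15.

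**Figure D2:**
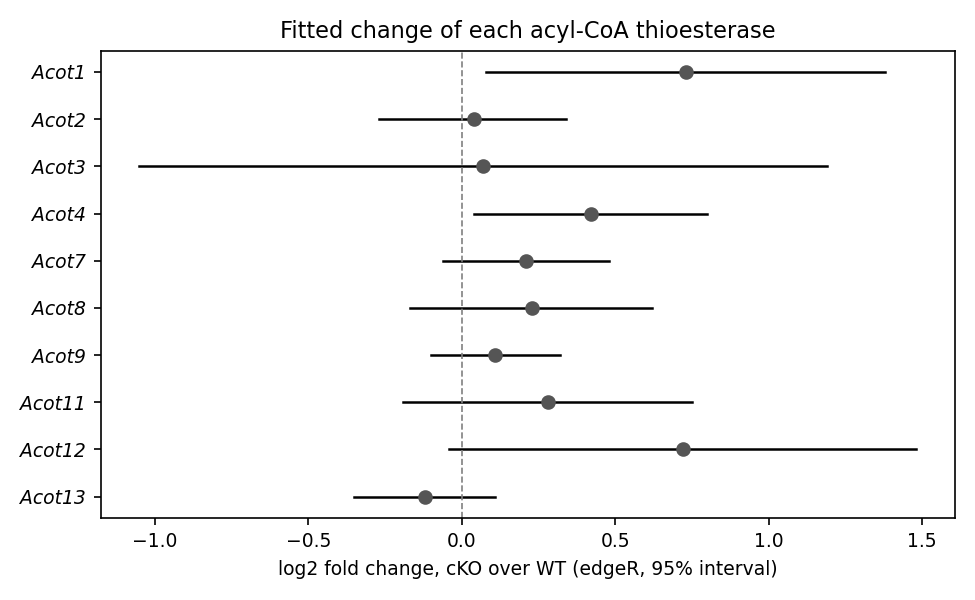
Fitted log2 fold change of each gene, cKO over WT (edgeR), as a point with its 95% interval as a line. Intervals of Acot1 (0.08 to 1.38) and Acot4 (0.04 to 0.80) lie above 0 before adjustment for multiple testing, and the other 8 cross 0.

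Acot11, the most abundant member, was higher in all cKO libraries than in 3 of the 4 WT libraries. It stood at 709, 787, 574 and 670 CPM in cKO replicates 1 to 4, against 857, 532, 465 and 404 CPM in WT replicates 1 to 4. WT replicates 2, 3 and 4 lay below all of cKO, and WT replicate 1, the deepest library, lay above all of cKO. The log2 fold change was 0.28 ± 0.21 (SE, edgeR adjusted p = 0.901), with a 95% interval of -0.19 to 0.75. Leaving out WT replicate 1 gave 0.55 with an unadjusted p of 0.00233 and an edgeR adjusted p of 0.537, so the member was not called there either. Grouping WT replicate 4 with cKO, as its genotype entry would have it, gave 0.03.

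Acot13 and Acot2, the next in abundance, varied by 1.31-fold and 1.53-fold between the lowest and the highest of the 8 libraries. Acot13 had 50, 58.6, 55.3 and 49.2 CPM in cKO, against 53.2, 55.4, 64.6 and 57.9 CPM in WT (log2 fold change -0.12 ± 0.11 SE, edgeR adjusted p = 0.917). The groups overlapped, and the 95% interval spans 0.786-fold to 1.08-fold. Without WT replicate 3, the highest library, the log2 fold change was -0.05. Pctp, the partner of Acot13, stood at 11 ± 0.545 CPM in cKO and 11.5 ± 1.44 CPM in WT (edgeR adjusted p = 0.971). Acot2 had 49.4, 73.4, 75.7 and 60.5 CPM in cKO, against 70.7, 61.4, 57.4 and 63.0 CPM in WT. Both the highest and the lowest of the 8 libraries were cKO libraries. The fitted log2 difference was 0.04, with a 95% interval of -0.27 to 0.34 and an edgeR adjusted p of 0.983, which spans 0.832-fold to 1.26-fold.

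Acot1 and Acot4 had the lowest unadjusted p among the members, and both rested on some of the cKO libraries. Acot1 held 4.07, 9.29, 11 and 5.27 CPM in cKO, against 4.45, 3.36, 5.41 and 4.53 CPM in WT. Replicates 2 and 3 of cKO were above every WT library, and cKO replicates 1 and 4 lay within the WT range. The log2 fold change was 0.73 ± 0.30 (SE, 95% interval 0.08 to 1.38), with an unadjusted p of 0.0301 and an edgeR adjusted p of 0.882. These values came from 47 to 173 counts per library. Acot4, which cuts succinyl-CoA and other dicarboxylic acyl-CoAs in mouse peroxisomes, held 13.6, 21.9, 22.7 and 19.7 CPM in cKO, against 15.3, 11.2, 16.0 and 15.6 CPM in WT. In cKO 3 libraries lay above all of WT and replicate 1 lay within its range. The log2 fold change was 0.42 ± 0.17 (SE, unadjusted p = 0.0335, edgeR adjusted p = 0.882).

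The other genes of the cluster gave a mixed picture. Acot6, a peroxisomal enzyme outside the list of 10, had 3.05, 3.10, 5.14 and 4.82 CPM in cKO, against 2.24, 3.00, 2.33 and 2.79 CPM in WT. Its groups did not overlap, though the lowest cKO library and the highest WT library were close. Over all genes tested, 3.50% had groups without overlap, and 1.23% with the higher level in cKO. Acot6 was not called (log2 fold change 0.65, edgeR unadjusted p = 0.0248, adjusted p = 0.882). Acot5 stayed under the count filter with at most 0.317 CPM. Because reads of the copies can be shared, counts were also summed over copies. Acot1 and Acot2 together stood at 72.1 ± 15.4 CPM in cKO and 67.6 ± 5.40 CPM in WT (log2 fold change 0.09, edgeR adjusted p = 0.961). Acot1 to Acot6 summed gave 96.7 ± 20.5 CPM in cKO and 85.7 ± 5.79 CPM in WT (log2 fold change 0.17 ± 0.15 SE, edgeR adjusted p = 0.904), a 95% interval of -0.14 to 0.49.

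**Figure D3:**
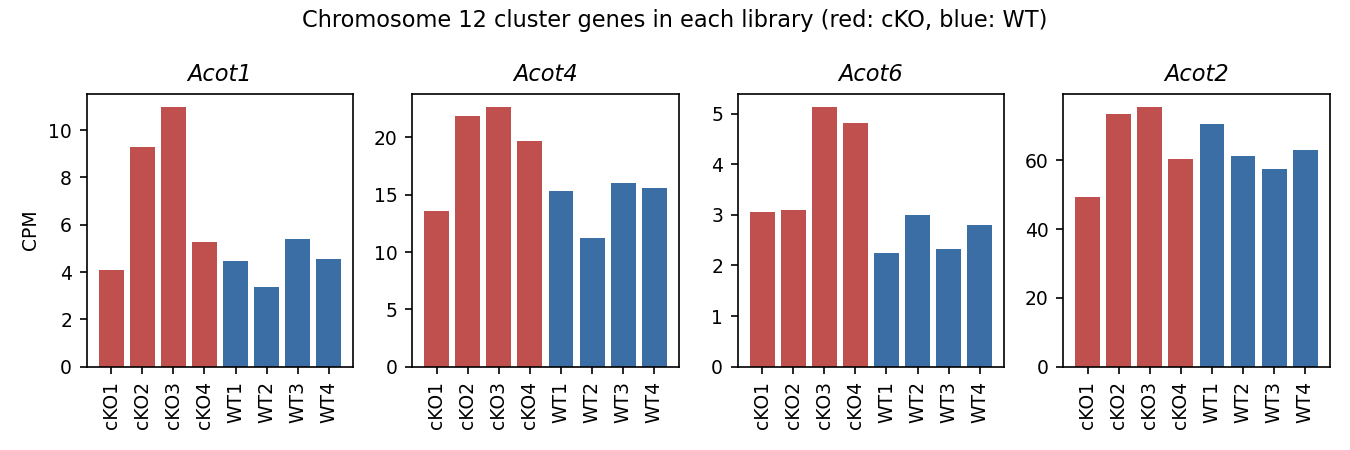
CPM of Acot1, Acot4, Acot6 and Acot2 in each library, cKO in red on the left and WT in blue on the right. Bars are single libraries, and each panel has its own axis from 0. Acot1 reaches 9.29 and 11 CPM in cKO replicates 2 and 3, and Acot2 stays between 49.4 and 75.7 CPM throughout.

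Acot1 and Acot4 ranked the libraries alike. Both put cKO replicates in the order 3, 2, 4, 1 and WT replicates in the order 3, 4, 1, 2, from high to low. Over the 8 libraries the log2 CPM of the pair correlated with Pearson r = 0.920 (exact permutation p = 0.000174, adjusted over 45 member pairs 0.00781) and Spearman rho = 0.976 (exact permutation p = 0.000397, adjusted 0.0179). Without cKO replicates 2 and 3, the libraries farthest from the median of Acot1, r was 0.914. Of the 45 pairs it was the 1 pair with an adjusted Pearson p under 0.05. All 45 correlations pool cKO and WT without removing the difference between groups. The p therefore includes any group difference that Acot1 and Acot4 share. Their transcripts have 139 sequences of 31 bases in common, 3.60% of Acot1 and 2.10% of Acot4, and the part of shared reads in the correlation was not tested. Acot1 and Acot2 had r = 0.672 and rho = 0.524 (exact permutation p = 0.0735 and 0.197, adjusted 0.462 and 0.641), with r = 0.0423 without the same cKO libraries. Acot2 and Acot4 had r = 0.610 and rho = 0.548 (exact permutation p = 0.109 and 0.171, adjusted 0.484 and 0.641), with r = 0.376 without cKO replicates 1 and 3. Whether these correlations differ from that of Acot1 and Acot4 was not tested. Among cKO libraries, replicate 3 was the highest and replicate 1 the lowest for Acot1, Acot2 and Acot4.

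**Figure D4:**
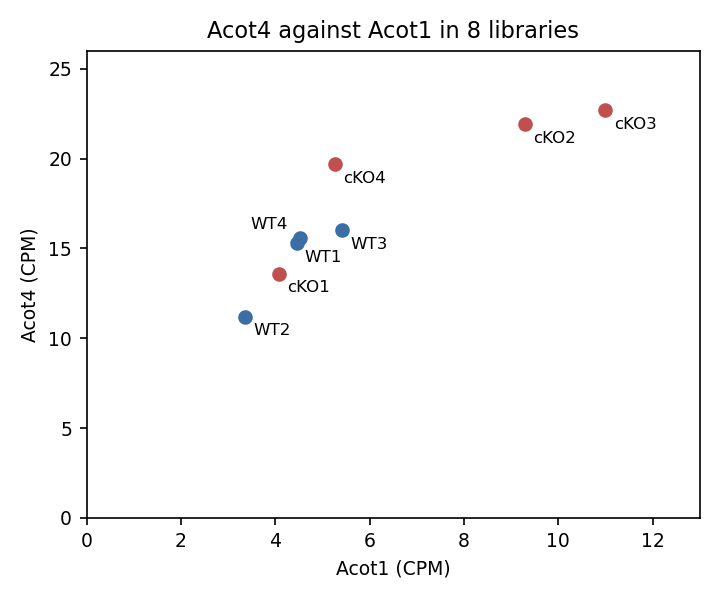
Acot4 against Acot1 in CPM, 1 point per library with its name, cKO in red and WT in blue, both axes from 0. The points rise together, with cKO replicates 2 and 3 at the upper right and WT replicate 2 at the lower left.

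The remaining type II members overlapped between groups as well. Acot7 had 17.7, 14.5, 18.5 and 14.9 CPM in cKO, against 14.6, 13.8, 14.4 and 13.9 CPM in WT (log2 fold change 0.21, edgeR adjusted p = 0.890). The WT libraries lay within 1 CPM of each other, 3 cKO libraries lay above them all, and cKO replicate 2 lay just below the highest. Acot9 had 36.0, 35.4, 37.6 and 36.0 CPM in cKO, against 34.0, 34.8, 35.5 and 30.0 CPM in WT (log2 fold change 0.11, edgeR adjusted p = 0.917). It was the steadiest member, with a highest library 1.25-fold over the lowest, and adding its copy Acot10, at most 0.136 CPM, left the log2 fold change at 0.11. Acot8 had 10.8, 12.9, 17.3 and 14.0 CPM in cKO, against 13, 10, 14.4 and 9.44 CPM in WT (log2 fold change 0.23, edgeR adjusted p = 0.901). The value was 0.09 without cKO replicate 3, 0.15 without WT replicate 4 and 0.05 with WT replicate 4 placed in cKO. Acot12 held only 10 to 31 counts per library, with 1.02, 2.10, 1.71 and 1.26 CPM in cKO, against 0.964, 1.14, 0.795 and 0.755 CPM in WT. Its cKO libraries exceeded all of WT except replicate 1 of cKO, which lay below WT replicate 2 (log2 fold change 0.72 ± 0.35 SE, edgeR adjusted p = 0.886).

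Acot3 was the least abundant member, with 6 to 33 counts per library, and its level was highest in the libraries with the most liver transcripts. It had 0.474, 0.599, 2.09 and 0.816 CPM in cKO, against 0.622, 0.929, 1.64 and 0.679 CPM in WT. Replicate 3 was the highest in both groups. The summed level of 6 hepatocyte transcripts (Alb, Apoa1, Ttr, Serpina1a, Cyp2e1 and Fga) was 322, 313, 773 and 444 CPM in cKO, against 303, 403, 622 and 311 CPM in WT, with none of the 6 at 0. Cyp2e1 is also made by fat cells. The same replicate 3 libraries led, and Alb alone reached 436 CPM in cKO replicate 3 and 429 CPM in WT replicate 3. The log2 fold change of Acot3 was 0.07 ± 0.52 (SE, edgeR adjusted p = 0.992), and -0.62 without cKO replicate 3 (unadjusted p = 0.245). Across libraries, the log2 CPM of Acot3 correlated with the mean log2 CPM of the liver transcripts at r = 0.948 (exact permutation p = 0.00146, adjusted over 60 relations of members with marker scores 0.0878) and rho = 0.833 (exact permutation p = 0.0154, adjusted 0.496). It was 0.714 without the replicate 3 libraries, so the size of the relation rested in part on them. None of the 60 relations passed the adjustment, and 5 had an unadjusted Pearson p under 0.05. The 60 relations also pool cKO and WT without removing the difference between groups. What part liver transcripts have in the level of Acot3 was not tested.

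The other 4 of those 5 relations were with the mean log2 CPM of the brown adipocyte markers, and they included Acot1 and Acot4. Acot2 had r = 0.847 and rho = 0.738 (exact permutation p = 0.00893 and 0.0458, adjusted 0.195 and 0.496), and Acot12 r = 0.833 and rho = 0.810 (exact permutation p = 0.00977 and 0.0218, adjusted 0.195 and 0.496). For Acot1 r was 0.739 and rho 0.643 (exact permutation p = 0.0341 and 0.0962, adjusted 0.432 and 0.496). For Acot4 r was 0.753 and rho 0.714 (exact permutation p = 0.036 and 0.0576, adjusted 0.432 and 0.496). Without cKO replicates 1 and 2, the libraries farthest from the median of the marker score, r was 0.717 for Acot2, 0.845 for Acot12, 0.602 for Acot1 and 0.632 for Acot4. What part the brown adipocyte transcripts have in these levels was not tested.

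**Figure D5:**
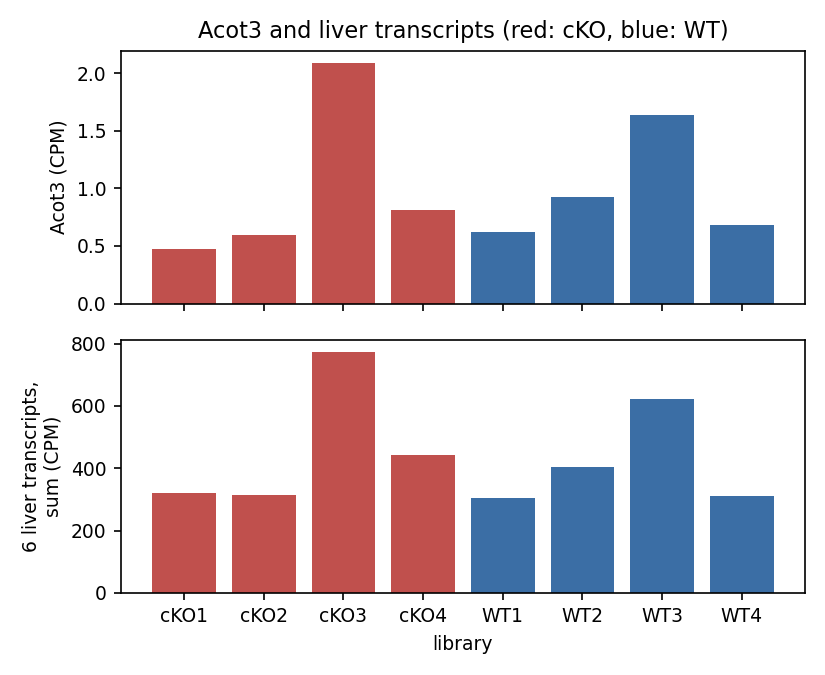
Acot3 (upper panel) and the sum of 6 liver transcripts (lower panel), both in CPM, in each library, cKO in red and WT in blue. Replicate 3 is the highest library of each group in both panels, at 2.09 and 1.64 CPM for Acot3 and 773 and 622 CPM for the sum.

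Replicate 3 of cKO was the highest of the 8 libraries for 7 of the 10 members, namely Acot1, Acot2, Acot3, Acot4, Acot7, Acot8 and Acot9. How often this library was the highest over all tested genes was not counted, so the 7 have no background to be read against. Without cKO replicate 3 edgeR called 0 members, with 7 positive and 3 negative log2 fold changes. Acot1 and Acot4 then came to 0.47 and 0.33 (edgeR unadjusted p = 0.135 and 0.103). Transcripts of skeletal muscle differed greatly between libraries of either group. The sum of 10 markers (Myh4, Myh1, Acta1, Ckm, Mylpf, Tnnt3, Tnni2, Atp2a1, Mb and Actn3) was 10200, 2930, 138 and 2220 CPM in cKO, against 38.0, 1850, 358 and 7920 CPM in WT, with none at 0. It was highest in cKO replicate 1 and WT replicate 4. Across the 8 libraries the mean log2 CPM of the muscle markers correlated with Acot1 at r = -0.269 and rho = -0.238 (exact permutation p = 0.521 and 0.582, adjusted 0.780 and 0.906), and with Acot4 at r = -0.217 and rho = -0.190 (exact permutation p = 0.598 and 0.665, adjusted 0.780 and 0.906). Without WT replicate 1 and cKO replicate 3 r was -0.171 for Acot1 and -0.0979 for Acot4. Over all 10 members r with the muscle markers was negative and ran from -0.663 for Acot8 to -0.059 for Acot12. That sign did not hold for all of them without WT replicate 1 and cKO replicate 3. There r was positive for Acot7 (0.469), Acot11 (0.213) and Acot12 (0.0501) and negative for the others. How often r was negative over all tested genes was not counted. For Acot8 rho was -0.643 (exact permutation p = 0.0752 and 0.0962, adjusted 0.627 and 0.496), and r was -0.677 without the same libraries. Leaving out cKO replicate 1 alone gave log2 fold changes of 0.94 for Acot1 and 0.57 for Acot4 (edgeR adjusted p = 0.414 for both). That library was the lowest of cKO for both genes, so both values rise without it whatever its muscle content. Leaving out WT replicate 4 as well, a choice made after seeing the data, gave 0.95 and 0.60 (edgeR adjusted p = 0.475 and 0.426). The part of muscle transcripts in these values was not tested. Macrophage markers summed to 41.6 to 92.5 CPM in cKO and 52.0 to 81.6 CPM in WT, and endothelial markers to 524 to 682 CPM in cKO and 546 to 837 CPM in WT. White adipocyte-enriched markers summed to 77.8 to 217 CPM in cKO and 137 to 181 CPM in WT. None of the markers in these 3 lists was at 0 throughout.

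Other genes of acyl-CoA handling did not pass the test either. In a list of 14 other thioesterases and acyl-CoA cleaving genes 7 were tested. Of them 0 were called by edgeR, DESeq2 or limma-voom, where 0.0687%, 0.287% and 0.0687% of all genes were called. By edgeR 1, Acot6, had an unadjusted p under 0.05, against 5.60% of all genes. The lysosomal thioesterases Ppt1 and Ppt2 had 28.6 ± 2.08 and 26.9 ± 3.56 CPM in cKO, and 26.7 ± 1.70 and 29.9 ± 0.875 CPM in WT. Them4 stood at 9.28 ± 1.56 CPM in cKO and 8.03 ± 1.23 CPM in WT, and Them6 at 2.24 ± 0.741 CPM in cKO and 3.44 ± 0.875 CPM in WT (edgeR adjusted p = 0.901 and 0.886). Baat, which in liver joins bile acids to amino acids, lay at 0.586 ± 0.310 CPM in cKO and 0.589 ± 0.384 CPM in WT. The thioesterase domain of fatty acid synthase releases new palmitate, and Fasn stood at 25700 ± 3540 CPM in cKO and 25700 ± 6820 CPM in WT. Among the 7 tested genes the fitted change was positive for 4 and negative for 3. Acot10, Them5, Them7, Acnat1 and Acnat2 stayed under 1 CPM in every library, as did Acot5, and Olah had 0 counts.

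Acyl-CoA synthetases, which make the substrates of the family, showed a median of 0.13 (log2 fold change) over 16 tested of 20 listed genes, with 11 positive and 5 negative. By edgeR, DESeq2 and limma-voom 0 were called, and by edgeR 1 had an unadjusted p under 0.05, against 5.60% of all genes. That gene was Acsl3, with 55.2 ± 8.81 CPM in cKO and 41.0 ± 9.50 CPM in WT. Acsl1, the main long-chain synthetase of fat, stood at 2070 ± 195 CPM in cKO and 1880 ± 280 CPM in WT (log2 fold change 0.13, edgeR adjusted p = 0.926). Acss2, which activates acetate, had 560 ± 182 CPM in cKO and 516 ± 159 CPM in WT, and Acsl5 347 ± 58.3 CPM in cKO and 299 ± 73.7 CPM in WT. The fatty acid transporter Slc27a1 had 369 ± 75.3 CPM in cKO and 404 ± 85.8 CPM in WT.

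Genes of acyl-CoA binding and transfer had a median of 0 over 20 tested of 21, with 10 positive and 10 negative. None was called by the same tools, and by edgeR 1 was at an unadjusted p under 0.05, against 5.60% of all genes. That gene encodes the lipid transfer protein Stard10, with 17.2 ± 1.47 CPM in cKO and 21.4 ± 3.74 CPM in WT. The acyl-CoA binding protein Dbi had 822 ± 58.8 CPM in cKO and 882 ± 85.0 CPM in WT. Cpt1b, which commits long-chain acyl groups to mitochondria, had 738 ± 85.1 CPM in cKO and 728 ± 34.2 CPM in WT. Crat, a carnitine acetyltransferase, had 788 ± 89.6 CPM in cKO and 738 ± 59.9 CPM in WT. Cpt2, which hands acyl groups back to coenzyme A inside mitochondria, had 479 ± 70.6 CPM in cKO and 412 ± 57.6 CPM in WT (log2 fold change 0.21, edgeR adjusted p = 0.896).

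PPAR genes and known PPAR targets had a median of 0.06 over 24 tested of 25, with 15 positive and 9 negative. Here too 0 were called by the same tools, and by edgeR 1 had an unadjusted p under 0.05, against 5.60% of all genes. That gene was Ucp3, a mitochondrial carrier, with 95.5 ± 14.5 CPM in cKO and 73.9 ± 18.0 CPM in WT. The most abundant were Hadhb, Hadha, Acadvl and Acadm, all enzymes of fatty acid oxidation. Hadhb had 3120 ± 276 CPM in cKO and 2840 ± 376 CPM in WT, and Hadha 1880 ± 149 CPM in cKO and 1780 ± 280 CPM in WT. Acadvl had 1830 ± 158 CPM in cKO and 1970 ± 102 CPM in WT, and Acadm 1570 ± 228 CPM in cKO and 1510 ± 154 CPM in WT.

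For the 3 most abundant members, the genes with the most similar pattern were listed by Pearson's r of log2 CPM over the 8 libraries. These genes were selected as the highest of 14553, so no p is given. Acot11 was matched most closely by Uggt1 (0.956), Elovl6 (0.954), 2810006K23Rik (0.934), Mrtfb (0.933) and Clic3 (0.931). Elovl6 lengthens newly made fatty acids. Acot13 was matched by Gm14057 (0.963), Nsmce3 (0.953), Slc12a9 (0.953), Naxd (0.952) and Ppp4c (0.952). For Acot2 the list was Tst (0.963), Bcat2 (0.960), Gm48348 (0.959), Gm15471 (0.951) and Nupr1 (0.950), where Tst and Bcat2 encode mitochondrial enzymes of sulfur and branched-chain amino acid metabolism. The 3 lists had no gene in common.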

How the data were processed

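Polyadenylated RNA of 8 brown fat libraries was sequenced. The authors deposited 1 table of estimated counts per Ensembl gene, and each column was matched to a library by the identifier in its label. StringTie, Salmon, edgeR and the build GRCm38 are named in the submitters' processing notes. The sources used here give no settings, annotation release or strand.

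Symbols, positions and transcripts came from GENCODE M21 (GRCm38), which named 54131 identifiers (99.5%), and promoters from RefSeq on GRCm38.p6. No protein sequence was used here. Counts were rounded, filtered with filterByExpr, scaled by TMM and tested by edgeR 4.0.16 in R 4.3.3 (quasi-likelihood F-test, robust option) with group as the only term, Benjamini-Hochberg over 14553 genes. The fit was also run on counts simulated from its own dispersions. The outcome is not given here, and such counts cannot show how the fit does on the real libraries. CPM are TMM-scaled and log2 CPM carries a prior count of 2. Coding sequences were aligned with MAFFT 7.526. Alternatives were DESeq2 1.42.0, limma-voom (limma 3.58.1), other scalings and filters, a replicate block, left-out libraries, WT replicate 4 moved and summed copies.

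The members and gene lists were chosen with earlier results of these data known. The text names all members, the other thioesterases and, of the synthetase, binding and PPAR lists, called genes or else up to 4 with the highest mean. Genes of these lists and of the brown adipocyte markers with an unadjusted p under 0.05, and genes overlapping members, were added after seeing values. Also named are, for 3 members, the 5 genes of most similar pattern. Library pairs of a group differed by more than sampling noise (chi-square per degree of freedom at least 14.5).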

Additional observations from a re-analysis of the deposited data

Results flagged for a closer look

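In WT the level of Acot4 in replicate 2, 11.2 CPM, lay far below the other 3 libraries of its group (15.3, 16.0 and 15.6 CPM), while cKO libraries held 13.6 to 22.7 CPM. It was the 1 group past Dixon's limit of 20 checked, and chance flags about 1 in 20. Without that library the log2 fold change of Acot4 was 0.33 (unadjusted p = 0.0936).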

How the results depend on the processing

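Under 20 alternatives, 183 values were recomputed and edgeR, DESeq2 or limma-voom called 0 of them. They include sums over copies, which are not values of single members. The sum of Acot1 to Acot6 is counted again for each of Acot1, Acot2, Acot3 and Acot4, and that of Acot9 and Acot10 for Acot9. Of the 183, 174 kept their direction and 9 turned it, all for Acot2 and Acot3, whose values lay near 0. The log2 fold change of Acot2 was 0.04 with all libraries, -0.03 without cKO replicate 2, -0.05 without cKO replicate 3, 0 (just below 0 before rounding) without WT replicate 3 and -0.09 without both replicate 3 libraries. That of Acot3 was 0.07, and -0.06 under the replicate block, -0.62 without cKO replicate 3, -0.12 without WT replicate 1, -0.04 without WT replicate 4 and -0.14 with WT replicate 4 moved to cKO. Acot3 failed the filter of 1 CPM in 4 libraries and the count filter without both replicate 3 libraries. Leaving out 1 library at a time gave 0.47 to 0.94 for Acot1, -0.62 to 0.46 for Acot3, 0.33 to 0.57 for Acot4, 0.15 to 0.27 for Acot7, 0.09 to 0.34 for Acot8, 0.07 to 0.14 for Acot9, 0.15 to 0.55 for Acot11, 0.54 to 0.88 for Acot12 and -0.17 to -0.05 for Acot13. With WT replicate 4 moved to cKO, Acot8, Acot9 and Acot11 came to 0.05, 0.02 and 0.03. Over the whole table, 10 genes were called (7 higher and 3 lower in cKO), 48 by DESeq2 (22 and 26), 93 without a count filter (42 and 51), and 1 with WT replicate 4 moved (0 and 1), and the cause was not tested. Leaving out 1 library gave 8 to 14. Deviations of same-numbered libraries from their group means correlated at -0.464, 0.035, 0.409 and 0.0016 for replicates 1 to 4. Of the 8 libraries, 1 correlated best with its own number. The replicate block called 7 genes and 0 members. Counts of 6 to 33 limit Acot3 and of 10 to 31 limit Acot12.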
